A study of Mus musculus with 167 samples.

Results

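The genes described are 33 genes of DNA synthesis in S phase other than the MCM helicase, chosen by name with earlier results of these data known. They are origin licensing and firing factors, enzymes of nucleotide supply, polymerases and primase, the sliding clamp with its loader and the Okazaki fragment enzymes, chromatin assembly genes, and single-strand binding and repair genes. A probe set was found for 32 of the 33, with none for Chaf1a, and 27 of those were bright enough to test. They stand among 12622 genes tested, of 18193 genes with a probe set. A gene was represented by its probe set with the highest mean over all arrays, and was tested where at least 3 arrays placed it above that array's own median.

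Each replicate was a separate animal. Messenger RNA was measured on Affymetrix arrays in the livers of male C57BL/6 mice of 3 genotypes. Wild type mice carry their own nuclear receptors CAR (Nr1i3) and PXR (Nr1i2), CAR/PXR knock-out mice lack both, and human CAR/PXR mice, called humanized here, carry the human receptors in their place. The probe sets for Nr1i3 and Nr1i2 are those of the mouse genes. Mice aged 9 to 11 weeks drank water with 0.05% (wt/vol) phenobarbital, a drug that activates CAR, or drank without it, and liver was sampled after 1, 7, 14, 28 and 91 days of dosing, and on day 119 once 4 weeks of recovery had passed. The 167 arrays fall into 36 groups of 3 to 5 animals, with 1 array an animal, and give 166 samples, since 2 treated humanized arrays of day 119 were nearly identical and were averaged. Each sample comes from powdered pieces of several liver lobes, so more cells in S phase and more RNA per cell cannot be told apart.

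Before a cell copies its DNA, ORC, CDC6 and CDT1 load the MCM helicase onto origins, and CDC45 and the GINS complex turn it into the active form. Ribonucleotide reductase, thymidylate synthase and thymidine kinase supply the nucleotides, primase and polymerase alpha start each strand, polymerases delta and epsilon extend it on the PCNA clamp, and FEN1 and LIG1 join the Okazaki fragments. Most of these genes are transcribed at the start of S phase by E2F factors. Hepatocytes of the adult liver are mostly quiescent, and CAR activators are known to drive a burst of hepatocyte replication in rodents that fades although dosing goes on.

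The genotype labels were first checked against the receptors. Mouse Nr1i3 ranged from 7.74 to 8.87 in wild type livers of the dosing days and from 4.67 to 5.46 in the other genotypes, on the log2 scale of the deposited values, where 1 unit is a doubling of the signal. Cyp2b10, the usual CAR target, had a median of 13.01 in treated and 6.45 in control wild type livers, of 12.76 and 7.92 in humanized livers, and of 5.62 and 5.35 in knock-out livers. Tissue markers were those of liver: the mean of 7 hepatocyte markers lay between 13.59 and 13.91 in every sample. Markers of pancreas acinar cells varied widely. Their mean over the 7 tested of 10 listed genes was between 5.63 and 12.63 and lay above 8 on 21 arrays, among them 3 of 5 wild type controls and 1 of 5 treated wild type livers of day 1. On those 21 arrays the mean level of the S phase genes lay within the range of the rest of the group in 10, above it in 6 and below it in 5. A pair of treated knock-out arrays with different labels, animal 4019 of day 28 and animal 4024 of day 91, were also nearly identical, with an SD of their log2 differences of 0.056 over 2706 bright genes against 0.1221 for the closest pair of different samples. In treated against control livers of days 1 and 7, in wild type and humanized mice, 0 of 4 B and plasma cell, 8 Kupffer cell, 3 cholangiocyte, 5 endothelium, 3 neutrophil and 1 erythroid markers passed the test used below, and median differences of the Kupffer markers ran from -0.18 to 0.25. Of 4 T and NK cell markers 1 was higher in humanized livers on day 1, of 6 stellate markers 2 were lower there on day 7, and of 7 hepatocyte markers 1 was lower there on each day; their part in the results was not tested.

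RefSeq promoter windows of the GRCm38.p6 build, 250 bases before to 50 after the start, were held for 28 of the 33 genes; Gins1, Gins2, Prim2, Pole and Exo1 had no entry. The E2F words TTTCCCGC, TTTCGCGC, TTTGCCGC and TTTGGCGC, searched on both strands, stood in the window of 8 of 28 genes, 28.6%, against 704 of 27025 genes with a window, 2.60%. The word CCAAT, which does not overlap an E2F word in any of these windows, stood in 13 of 28, 46.4%, against 41.1% of all genes. Stretches of 80 bases before the start follow for 3 genes with an E2F word upstream of it, to show what such a word looks like in this family, and for 3 genes with CCAAT that are among those with large or well measured differences below. Capitals mark the E2F word in Orc1 (chr4:108579374-108579453, plus strand, bases -80 to -1), Pola1 (chrX:93632250-93632329, minus strand, bases -174 to -95) and Cdc6 (chr11:98907977-98908056, plus strand, bases -174 to -95). They mark CCAAT or its reverse complement in Rrm2 (chr12:24708168-24708247, plus strand, bases -86 to -7), Pcna (chr2:132253224-132253303, minus strand, bases -123 to -44) and Prim1 (chr10:128015135-128015214, plus strand, bases -80 to -1).
Orc1: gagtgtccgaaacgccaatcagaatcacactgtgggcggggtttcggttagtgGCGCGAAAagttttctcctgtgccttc
Pola1: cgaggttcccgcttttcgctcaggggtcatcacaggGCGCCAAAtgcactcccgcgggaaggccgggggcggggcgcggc
Cdc6: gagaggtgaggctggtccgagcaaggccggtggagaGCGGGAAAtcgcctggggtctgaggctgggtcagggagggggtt
Rrm2: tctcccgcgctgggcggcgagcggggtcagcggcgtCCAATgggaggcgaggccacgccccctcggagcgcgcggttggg
Pcna: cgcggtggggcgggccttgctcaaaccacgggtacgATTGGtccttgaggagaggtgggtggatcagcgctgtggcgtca
Prim1: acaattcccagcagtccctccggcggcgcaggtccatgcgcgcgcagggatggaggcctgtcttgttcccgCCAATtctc
The other windows with an E2F word were those of Cdt1, Pold1, Pole2, Lig1 and Rfc3. Of the genes shown with the word, Pola1 rose in wild type on day 1 and over the dosing days in wild type and humanized livers, Orc1 differed by -0.05 to -0.01 in those 3 comparisons and Cdc6 was too dim to test.

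The 27 tested genes spanned a wide range of signal. Pcna, the sliding clamp, had a median of 9.82 over all samples, Fen1, the flap nuclease, 9.41, and Slbp, which binds the end of histone mRNAs, 8.34. The others had medians between 4.47 and 7.34. Signals of different probe sets were not compared as amounts of transcript. Cdc6, Tyms, Exo1 and Rad51ap1 were above the array's median on 0 arrays and Pole on 1, and these 5 were not tested. The genes Gins2 (3 arrays), Chaf1b (8) and Fignl1 (12) passed the brightness filter only through treated livers, so their passing already depended on being high after treatment. All those livers were wild type or humanized. In every comparison below that uses treated livers of these genotypes, the differences and p values of these genes are tied to the filter. Pole2 passed on 20 arrays of both arms. The counts are therefore also given for the 23 members above the median on at least 50% of the arrays.

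The question of the first comparison was whether phenobarbital changed these genes in wild type liver within 1 day. On day 1, 12 of the 27 genes rose and 0 fell (limma, adjusted p below 0.05 over all genes tested, the rule for every call below), against 5.02% of all genes that rose. Of the 23 genes bright on at least 50% of the arrays, 9 rose. The median difference of the 27 was 0.19 on the log2 scale, against -0.01 for all genes, and 23 of 27 differences were above 0. The genes that rose came from nearly every step of replication: 3 of 6 in origin licensing and firing, 1 of 4 in nucleotide supply, 4 of 6 polymerase and primase genes, 3 of 6 in the clamp and Okazaki group, and 1 of 3 binding and repair genes. In the group of chromatin assembly and histone mRNA, 0 of 2 passed the test.

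Fignl1, which encodes an ATPase with a role in DNA repair by recombination, had the largest difference. Its level was 4.02, 4.42, 4.32, 4.18 and 4.32 in the 5 control livers and 5.56, 5.46, 5.26, 5.97 and 4.83 in the 5 treated ones. Every treated liver was above every control. The difference was 1.17 with an SE of 0.14 (adjusted p = 3.65e-11), and it stayed past the threshold without any 1 animal. Fignl1 was tested only because treated livers placed it above the array's median, so the size of this difference and its p are tied to the filter. Its other probe set was above the median on 0 arrays and was not tested.

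Rrm2 encodes the small subunit of ribonucleotide reductase, the part whose amount rises in S phase. Its level was 6.29, 6.78, 6.59, 6.73 and 6.48 in controls and 6.97, 7.86, 7.74, 9.29 and 6.46 in treated livers. Of the treated livers 4 were above all controls, animal 2005 lay inside the control range at 6.46, and animal 2004 stood far above the rest at 9.29, the highest value of Rrm2 in all samples. The difference was 1.09 with an SE of 0.269 (adjusted p = 0.0024). Without animal 2004 it was 0.68 (adjusted p = 0.101). The other probe sets of Rrm2 gave 1.13 and 0.70, both past the threshold. The large subunit, Rrm1, differed by 0.19 and did not pass the test.

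Cdt1, which with CDC6 loads the MCM helicase, was 6.47, 6.11, 6.38, 6.82 and 6.42 in controls and 7.07, 7.20, 6.85, 7.75 and 6.55 in treated livers, and 4 of 5 treated livers were above all controls. It rose by 0.64 (SE 0.159, adjusted p = 0.00248). Lig1, DNA ligase 1, which seals Okazaki fragments, was 5.68, 5.95, 5.64, 5.96 and 5.65 in controls and 6.09, 6.46, 6.00, 7.07 and 6.01 in treated livers, with no overlap, and rose by 0.55 (SE 0.113, adjusted p = 0.000201). Prim1, the catalytic subunit of primase, was 6.62, 6.41, 6.32, 6.37 and 6.46 in controls and 6.53, 7.09, 7.03, 7.62 and 6.43 in treated livers, of which 3 were above all controls. It rose by 0.50 (SE 0.143, adjusted p = 0.00979).

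Pcna, the brightest of the genes, rose from 9.73 ± 0.09 to 10.22 ± 0.31 (SD, n = 5 each), a difference of 0.49 with an SE of 0.076 (adjusted p = 3.1e-07), and its groups did not overlap. The second probe set of Prim1 gave 0.48, past the threshold, and that of Cdt1 gave 0.36 (adjusted p = 0.057). The remaining 6 that rose were Prim2 (0.46), the regulatory subunit of primase, Pola1 (0.41), the catalytic subunit of polymerase alpha, Rfc4 (0.36), of the clamp loader, Orc6 (0.32), of the origin recognition complex, Gins2 (0.29), of the GINS complex, and Pole2 (0.28), a subunit of polymerase epsilon. Orc6, Gins2 and Prim2 had no overlap between the groups either, so that 6 of the 27 tested genes had every treated liver above every control, against 3.49% of all genes. Of these, Fignl1 and Gins2 had passed the brightness filter through treated livers only, and 4 of the 23 brighter genes had no overlap. The other probe sets of Prim2 gave 0.10 and 0.15 without passing. At the other end, Orc1, Cdc45, Pola2, Pold1, Rfc5 and Rfc3 lay between -0.08 and 0.08. For Cdc45, a second, dimmer probe set gave 0.23 on day 1 without passing and 0.39 on day 7 (adjusted p = 0.0202), where the brighter one gave -0.04 and -0.06.

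The size of the day-1 response rested on a few animals. Animal 2004 had the highest value of all samples in 13 of the 27 genes, and its mean level over the 27 was 7.10, against 6.71, 6.78, 6.74 and 6.49 in the other treated livers and 6.43 to 6.51 in controls. Without it, 4 genes were called, namely Fignl1, Lig1, Prim2 and Pcna, and without control 1003, 8. The shares of all genes called in such fits with fewer arrays are not given, here or below. Animal 2004 was also the 1 treated liver with acinar markers above 8, at a mean of 9.58. Leaving out every array above 8 left 4 treated livers against 2 controls, and 1 gene, Fignl1, was called, at 1.03 (adjusted p = 7.75e-06). Fignl1 had passed the brightness filter through treated livers only. The treated livers that remained had a mean member level 0.21 above those controls, against 0.29 with all arrays. The median difference of the acinar markers themselves was -1.76, with 0 of 7 passing, and their part in the result was not tested. The 3 controls above 8 had mean levels of 6.46, 6.51 and 6.43, and the other 2 had 6.49 and 6.46. Fitted on the day-1 wild type groups alone, 4 genes were called, of which Fignl1, Pcna and Prim2 were also among the 4 called without animal 2004.

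**Figure D1:**
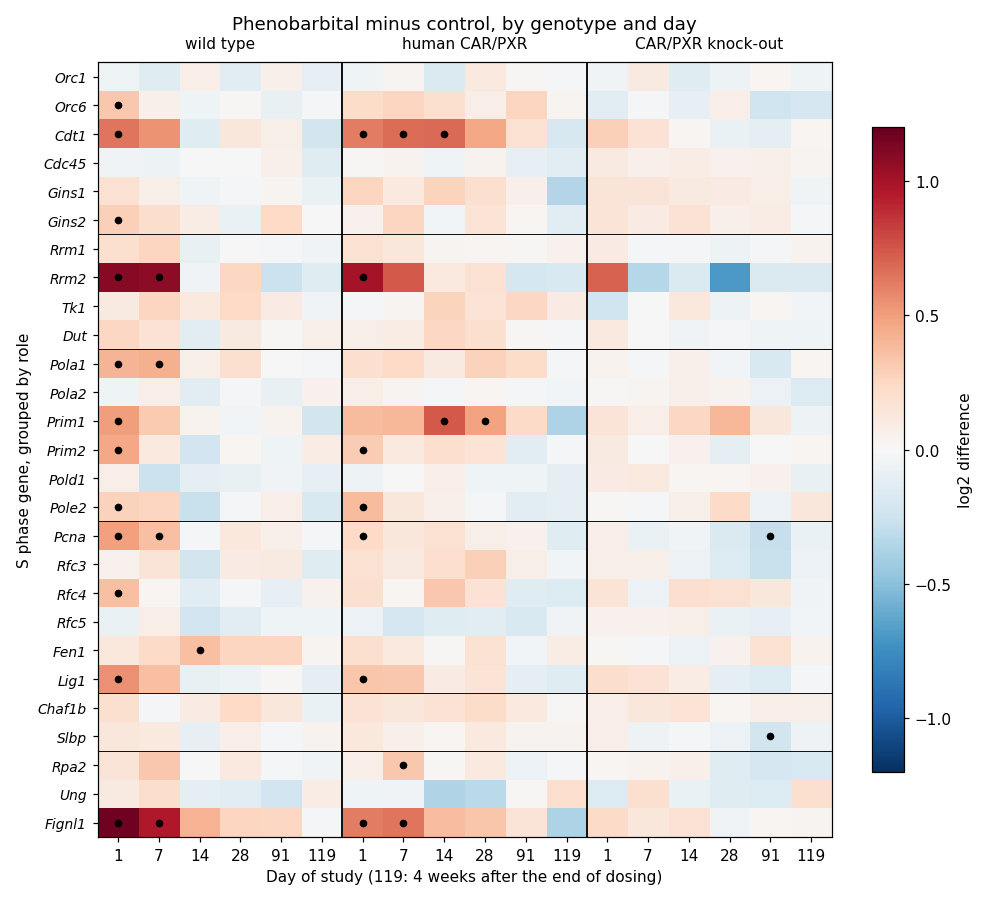
Difference between phenobarbital and control livers (log2, colour) for the 27 tested genes (rows, grouped by role) in each genotype and day (columns). Black dots mark adjusted p below 0.05. The dots number 12, 4 and 1 on days 1, 7 and 14 in wild type, against 5.02%, 2.11% and 3.11% of all genes that rose. In humanized livers they number 7, 3, 2 and 1 on days 1 to 28, against 3.95%, 2.82%, 7.34% and 4.18%. The 2 of day 14 and the 1 of day 28 there are a share close to that among all genes. Knock-out livers have 2 dots, both lower, on day 91, against 2.57% of all genes that fell.

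On day 7 in wild type, 4 genes rose and 0 fell, against 2.11% of all genes that rose, with a median of 0.21 against -0.01 for all genes. Of the 23 brighter genes 3 rose. Rrm2 was 6.99, 6.98, 6.86 and 5.84 in the 4 controls and 7.56, 8.14, 8.23 and 7.02 in the 4 treated livers. The groups did not overlap, with the lowest treated value just above the highest control. The difference was 1.07 (SE 0.301, adjusted p = 0.0251). Fignl1 was 4.55, 4.22, 4.14 and 4.25 in controls and 5.55, 5.62, 5.32 and 4.50 in treated livers. It rose by 0.96 (SE 0.156, adjusted p = 2.11e-06), a value tied to the filter as on day 1. Its low treated liver, animal 2009, had the lowest mean member level of the treated group, 6.54 against 6.69 to 6.83, and acinar markers at 8.37. Pola1 was 6.12, 6.14, 6.02 and 6.17 in controls and 6.63, 6.52, 6.65 and 6.38 in treated livers, with no overlap, and rose by 0.43 (SE 0.125, adjusted p = 0.0316). The call of Pola1 was lost without any 1 of 7 animals and with the mean of its probe sets, at 0.25 (adjusted p = 0.0872). Pcna was 9.83, 9.81, 9.65 and 9.74 in controls and 10.09, 10.14, 10.28 and 9.94 in treated livers, with no overlap, and rose by 0.36 (SE 0.085, adjusted p = 0.00351). Without arrays above the acinar limit, which removed animal 2009, 8 genes were called: Cdt1 at 0.74, Lig1 at 0.45, Rpa2 at 0.37 and Rrm1 at 0.31 joined these 4. The share of all genes called in that fit is not given, and the 2.11% above belongs to the main fit. With 1 animal left out the count was lowest without animal 2008, at 1, and was 2 without animal 2007 or control 1010. Fitted on the day-7 wild type groups alone, the count was 1.

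From day 14 on, wild type livers showed little. On day 14, 1 gene rose, against 3.11% of all genes, and the median of the 27 was -0.05. That gene was Fen1, at 0.36 (SE 0.11, adjusted p = 0.0261), measured by a probe set whose name marks probes shared with other transcripts; its other probe set gave -0.19 in the same comparison, without passing the test. On days 28, 91 and 119, 0 of 27 genes passed in either direction, against 5.55%, 2.13% and 0.0238% of all genes. At an unadjusted limma p under 0.05, 3, 2 and 0 were higher and 0, 0 and 1 lower on those days. The medians of the 27 were 0.01, 0.01 and -0.04. All 5 treated livers were above every control for Fen1 on days 28 and 91, at differences of 0.26 each, without passing. Rrm2, at 1.09 and 1.07 on days 1 and 7, was at -0.04 on day 14. The change from day 1 to day 91 was itself tested: 2 genes had a smaller effect on day 91, Fignl1 by -0.91 (SE 0.204, adjusted p = 0.00783) and Pcna by -0.43 (SE 0.111, adjusted p = 0.0401), against 0.206% of all genes. Without animal 2004 neither was called, at -0.77 and -0.30, and the call of Pcna was lost without any 1 of 11 animals. Fignl1 was above the array's median on 4 of 5 treated wild type arrays of day 1 and on none of day 91. Its change is therefore tied to the filter. For Rrm2 the change was larger but less certain, at -1.35 (SE 0.392, adjusted p = 0.0995). From day 1 to day 7, 0 of 27 genes changed their effect, against 0.261% of all genes, and the median of these changes was -0.08. At an unadjusted p under 0.05, 2 had a smaller effect on day 7.

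Over the 5 dosing days together, 12 of 27 genes were higher in treated wild type livers and 0 lower, against 11.8% of all genes that were higher, with a median of 0.07 against -0.01. Among the 23 brighter genes 9 were higher. Fignl1 ran from 4.02 to 4.66 (median 4.32) in 22 controls and from 4.34 to 5.97 (median 4.79) in 24 treated livers, a mean effect of 0.61 (SE 0.066, adjusted p = 3.09e-14). This effect and its p are tied to the brightness filter, which Fignl1 passed through treated livers only. Rrm2 ran from 5.84 to 7.21 (median 6.60) in controls and from 5.99 to 9.29 (median 6.80) in treated livers, and Cdt1 from 6.11 to 6.82 (median 6.38) and from 5.82 to 7.75 (median 6.48). Their ranges overlapped widely, and the mean effects were 0.42 (SE 0.126, adjusted p = 0.00548) and 0.25 (SE 0.075, adjusted p = 0.00555). Fen1 ran from 9.21 to 9.68 (median 9.44) and from 9.40 to 9.97 (median 9.69), with a mean effect of 0.25 (SE 0.049, adjusted p = 1.83e-05), which was 0.02 by its other probe set. Pola1 ran from 5.77 to 6.45 (median 6.15) and from 6.00 to 6.99 (median 6.29), with a mean effect of 0.22 (SE 0.053, adjusted p = 0.000477). Pcna, Tk1, Prim1, Gins2, Lig1, Chaf1b and Rpa2 were higher by 0.11 to 0.21. The calls of Prim1 and Rpa2 were lost without any 1 of 13 and 17 animals. The other probe set of Prim1 gave 0.09 without passing, and that of Rpa2 gave 0.16, past the threshold. Tk1, thymidine kinase 1, had not been called on any single day. Cdc45 was at -0.01 by its brighter probe set, without passing, and was higher by its other one, at 0.18 (adjusted p = 0.000493). Without arrays above the acinar limit 7 of the 12 were called, and Cdt1 (0.19, adjusted p = 0.075), Rrm2 (0.35, adjusted p = 0.0515), Prim1, Chaf1b and Rpa2 were not.

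Humanized livers also responded on day 1. There 7 genes rose and 0 fell, against 3.95% of all genes that rose, with a median of 0.18 against -0.01. Of the 23 brighter genes 5 rose. By role the 7 were Cdt1 in licensing, Rrm2 in nucleotide supply, Prim2 and Pole2 among polymerase and primase genes, Pcna and Lig1 in the clamp and Okazaki group, and Fignl1 in repair. All 7 had been called in wild type on day 1 too.

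Rrm2 was 6.48, 5.51, 6.22, 5.79 and 6.54 in humanized controls of day 1 and 7.45, 7.39, 8.14, 6.21 and 6.38 in treated livers. Of these 3 were above every control and animals 6004 and 6005 lay inside the control range, and the difference was 1.00 (SE 0.269, adjusted p = 0.00615). Cdt1 was 6.07, 6.26, 6.10, 6.86 and 6.14 in controls and 7.06, 6.82, 7.39, 6.42 and 6.79 in treated livers. It rose by 0.61 (SE 0.159, adjusted p = 0.00487), and the overlap came from 1 high control. Fignl1 was 4.43, 4.47, 4.16, 4.21 and 4.51 in controls and 4.94, 4.96, 5.75, 4.61 and 4.55 in treated livers, all above the controls, and rose by 0.61 (SE 0.14, adjusted p = 0.00113). As in wild type, this value is tied to the filter. Pole2 was 5.00, 4.88, 4.74, 5.18 and 4.70 in controls and 5.08, 5.29, 5.77, 5.08 and 5.16 in treated livers, with 2 above every control, and rose by 0.38 (SE 0.094, adjusted p = 0.00264). Lig1 was 5.67, 5.85, 5.72, 6.04 and 5.83 in controls and 6.23, 6.21, 6.41, 5.85 and 6.08 in treated livers, with 4 above every control, and rose by 0.33 (SE 0.113, adjusted p = 0.0368).

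Here too 1 animal carried much of the response. Animal 6003 had the highest level in the group for all 5 of these genes, a mean member level of 6.85 against 6.44 to 6.64 in the rest of the group, and acinar markers at 12.63, the highest of the series. Without it 0 genes were called, with Fignl1 at 0.41 (adjusted p = 0.0511), Cdt1 at 0.48 (adjusted p = 0.0523) and Rrm2 at 0.75 (adjusted p = 0.0795). With every array above the acinar limit left out of the model, animal 6003 being the only one of this comparison, 2 genes were called, Cdt1 and Fignl1. The median difference of the acinar markers was 1.53, with 0 of 7 passing, and their part in the result was not tested. Fitted on the day-1 humanized groups alone, 1 gene was called, Prim2.

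**Figure D2:**
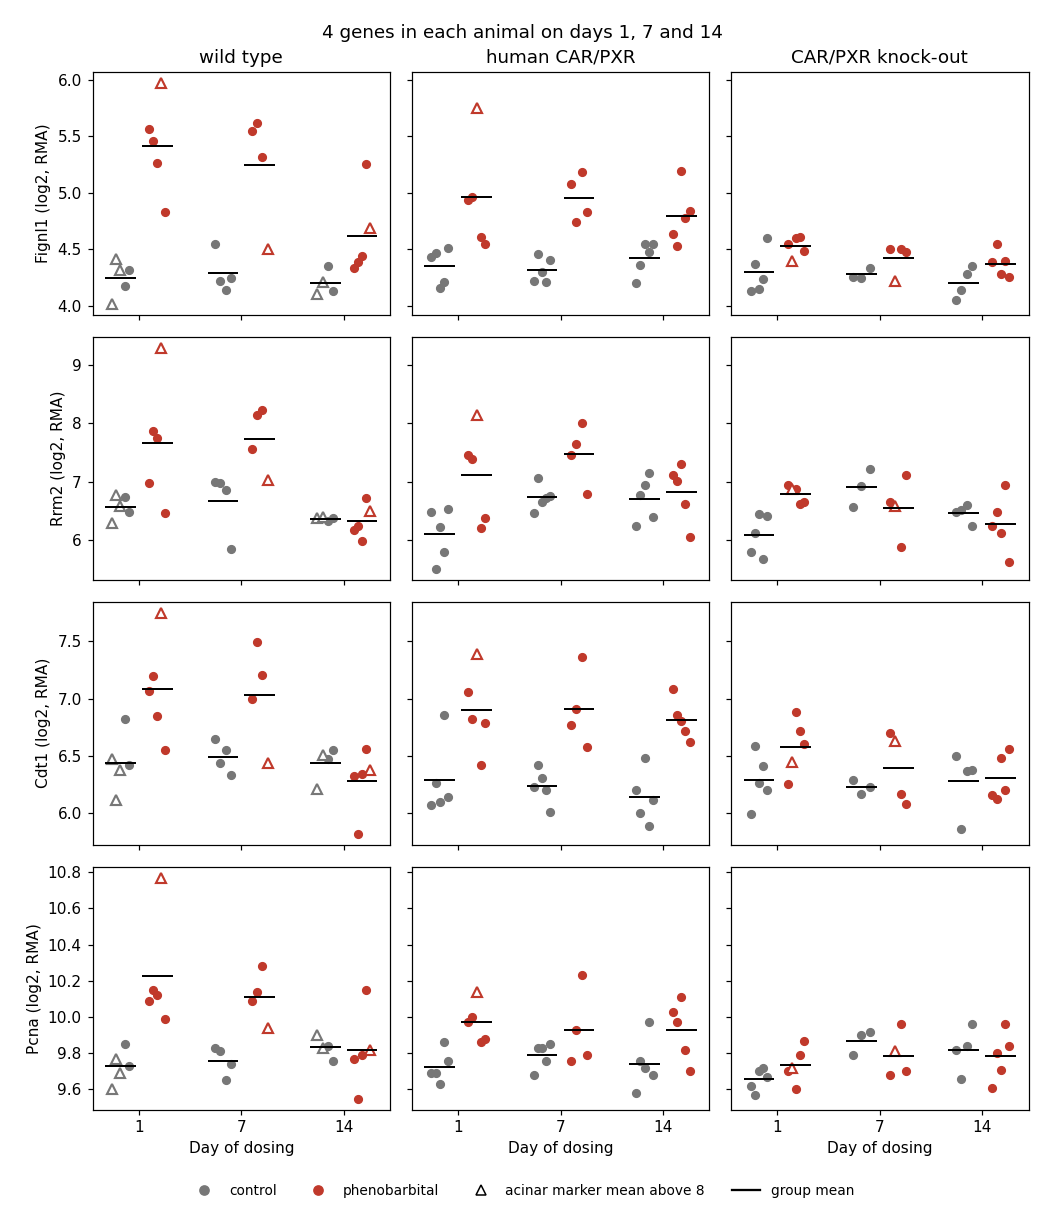
Levels of Fignl1, Rrm2, Cdt1 and Pcna (log2, RMA) in each animal on days 1, 7 and 14, by genotype, with controls in grey and phenobarbital in red. Open triangles are arrays with an acinar marker mean above 8 and bars are group means. Treated wild type livers reach 9.29 for Rrm2 on day 1, and treated knock-out livers stay at or below 7.11.

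On day 7 in humanized livers 3 genes rose and 0 fell, against 2.82% of all genes that rose, with a median of 0.12 against -0.01. Of the 23 brighter genes 2 rose. Cdt1 was 6.23, 6.42, 6.31, 6.20 and 6.01 in the 5 controls and 6.77, 6.91, 7.36 and 6.58 in the 4 treated livers, with no overlap, and rose by 0.67 (SE 0.169, adjusted p = 0.00594). Fignl1 was 4.22, 4.46, 4.30, 4.21 and 4.41 in controls and 5.08, 4.74, 5.18 and 4.83 in treated livers, with no overlap, and rose by 0.64 (SE 0.148, adjusted p = 0.00257). The filter limit of Fignl1 applies here too. Rpa2, a subunit of the single-strand binding protein RPA, was 5.63, 5.75, 5.60, 5.48 and 5.66 in controls and 6.00, 5.97, 5.98 and 5.82 in treated livers. It rose by 0.32 (SE 0.102, adjusted p = 0.0468), close to the threshold. This call was lost without any 1 of 7 animals and with renewed quantile normalization. The other probe set of Rpa2 gave 0.06 without passing, and the mean of its probe sets 0.19 (adjusted p = 0.319). Acinar markers were at most 6.06 in these groups. Without animal 6008, which had the highest level of Cdt1, Fignl1, Rrm2 and Pcna in its group, only Fignl1 was called.

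Single genes were called later in humanized livers, at shares close to that of all genes. On day 14, 2 genes rose and 0 fell, against 7.34% of all genes that rose, and both are among the brighter 23. Cdt1 was 6.20, 6.00, 6.48, 5.89 and 6.11 in controls and 7.08, 6.86, 6.80, 6.72 and 6.62 in treated livers, and rose by 0.68 (SE 0.159, adjusted p = 0.00124). Prim1 was 5.94, 5.87, 6.15, 5.99 and 5.84 in controls and 6.79, 6.66, 6.90, 6.62 and 6.50 in treated livers, and rose by 0.74 (SE 0.143, adjusted p = 6.35e-05). Neither gene had overlap, and neither call was lost when any 1 animal was left out. On day 28, Prim1 was the 1 gene that rose, by 0.48 (SE 0.152, adjusted p = 0.029), against 4.18% of all genes, and the call was lost without any 1 of 5 animals. On days 91 and 119, 0 of 27 genes passed in either direction, against 2.19% and 0.214% of all genes. At an unadjusted p under 0.05, 2 were higher and 1 lower on day 91, and 0 higher and 3 lower on day 119. Pole2 had a smaller effect on day 91 than on day 1, by -0.52 (SE 0.136, adjusted p = 0.0234), the 1 such gene against 0.349% of all genes, and this call was lost without any 1 of 4 animals, with the smallest value, -0.39, without animal 6003. From day 1 to day 7, 0 genes changed their effect, against 0.238% of all genes, also at an unadjusted p under 0.05.

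Over the dosing days 14 of 27 genes were higher and 1 lower in treated humanized livers, against 14.9% and 17.5% of all genes, with a median of 0.12 for the 27. Among the 23 brighter genes 12 were higher and 1 lower. Cdt1 ran from 5.89 to 6.86 (median 6.24) in 24 controls and from 5.94 to 7.39 (median 6.82) in 23 treated livers, a mean effect of 0.52 (SE 0.074, adjusted p = 3.12e-09). Prim1 ran from 5.83 to 6.62 (median 6.15) and from 6.13 to 7.03 (median 6.58), with 0.45 (SE 0.066, adjusted p = 1.43e-08). For both genes the median treated liver lay just below the highest control. Fignl1 ran from 4.16 to 4.87 (median 4.45) and from 4.28 to 5.75 (median 4.78), with 0.42 (SE 0.065, adjusted p = 5.57e-08), again tied to the filter. Rrm2 ran from 5.51 to 7.96 (median 6.74) and from 6.06 to 8.14 (median 7.01), with 0.37 (SE 0.125, adjusted p = 0.0159), and Pola1 had an effect of 0.21 (SE 0.052, adjusted p = 0.000608). Orc6, Gins1, Tk1, Dut, Prim2, Pcna, Rfc3, Lig1 and Chaf1b were higher by 0.12 to 0.20. The call of Prim2 was lost without any 1 of 14 animals. Cdc45 was at -0.01 by its brighter probe set, without passing, and was higher by its other one, at 0.15 (adjusted p = 0.00325). Dut encodes dUTPase, which keeps uracil out of DNA, and Gins1 and Rfc3 are subunits of GINS and the clamp loader. Rfc5, another clamp loader subunit, was lower, at -0.15 (SE 0.036, adjusted p = 0.000655). Of the other clamp loader subunits, Rfc3 was higher by 0.17, and Rfc4 (0.11), Rfc2 (-0.01) and Rfc1 (-0.04), the last 2 from the list of other fork genes, did not pass. The other probe set of Rfc3 gave 0.05 without passing, and the mean of its probe sets 0.11 (adjusted p = 0.0508).

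**Figure D3:**
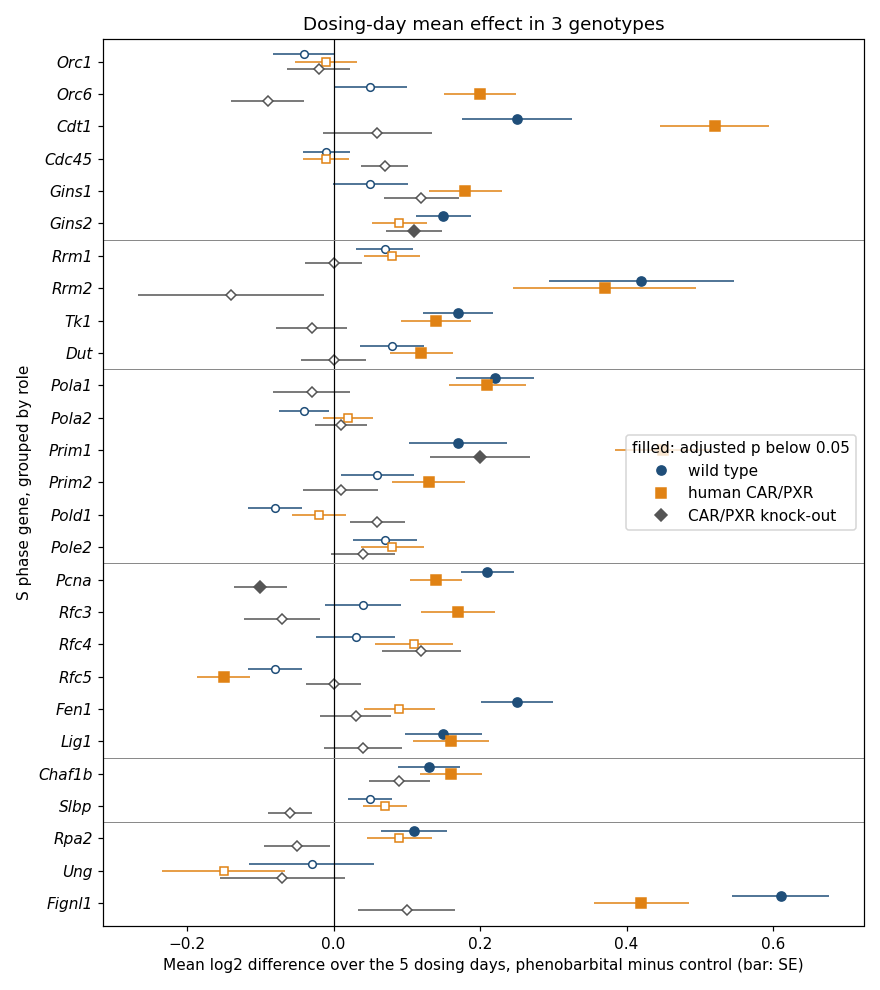
Mean difference between phenobarbital and control over the 5 dosing days (log2, with its SE) for the 27 genes in wild type, humanized and knock-out livers. Filled symbols passed at adjusted p below 0.05, and the knock-out symbols lie between -0.14 and 0.20.

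Knock-out livers show what remains without either receptor. On days 1, 7, 14 and 28, 0 of 27 genes passed in either direction, against 8.08%, 0.0158%, 0.325% and 5.16% of all genes. At an unadjusted limma p under 0.05, 1, 0, 1 and 2 were higher and 1, 0, 0 and 2 lower. On day 1, Rrm2 was 5.79, 6.12, 6.45, 5.68 and 6.41 in controls and 6.95, 6.87, 6.88, 6.62 and 6.66 in treated livers. The groups did not overlap, and the difference of 0.71 (SE 0.269) had an adjusted p of 0.0855. Fitted on the day-1 knock-out groups alone, Rrm2 was called, at 0.71 (adjusted p = 0.0369), while the same kind of fit did not call it in wild type (adjusted p = 0.13) or humanized livers (adjusted p = 0.131). The mean member level of all 5 treated livers, 6.40 to 6.46, was above that of every control, 6.27 to 6.38, a difference of 0.09. Among those treated livers animal 4002 had acinar markers at 9.24 and the lowest mean level. On day 91, 2 genes fell, against 2.57% of all genes that fell. Pcna was 10.03, 9.96, 9.97, 10.02 and 10.02 in controls and 9.79, 9.83, 9.61, 9.68 and 9.67 in treated livers, with no overlap, and fell by 0.28 (SE 0.076, adjusted p = 0.0214). Slbp fell by 0.22 (SE 0.064, adjusted p = 0.0328). Both calls were lost without animal 4023, whose acinar markers stood at 8.66, and that of Slbp without any 1 of 5 animals. With renewed quantile normalization or with median centring they were lost too, at -0.25 and -0.24 for Pcna. Animal 4024, nearly identical to an array labelled day 28, belongs to this treated group. On day 119, 0 genes passed, against 0.111% of all genes, and 1 was lower at an unadjusted p under 0.05.

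Over the dosing days 2 genes were higher and 1 lower in treated knock-out livers, against 8.64% and 11.0% of all genes, with a median of 0.01 for the 27 and for all genes. Of the 23 brighter genes 1 was higher and 1 lower. Prim1 ran from 5.46 to 6.68 (median 6.14) in 22 controls and from 5.89 to 6.90 (median 6.30) in 24 treated livers, and was higher by 0.20 (SE 0.068, adjusted p = 0.0214). Gins2 ran from 4.43 to 5.09 (median 4.78) and from 4.65 to 5.16 (median 4.91), and was higher by 0.11 (SE 0.038, adjusted p = 0.025). Pcna ran from 9.57 to 10.03 (median 9.86) and from 9.57 to 9.96 (median 9.72), and was lower, at -0.10 (SE 0.036, adjusted p = 0.038). The ranges of the arms overlapped widely for all 3 genes. Without the nearly identical pair 4019 and 4024, Prim1 was at 0.18 (adjusted p = 0.0563) and Pcna at -0.10 (adjusted p = 0.0527), and the other probe set of Prim1 gave 0.15 without passing. The call of Pcna was lost without any 1 of 10 animals and that of Gins2 without any 1 of 4. The dimmer, unshared probe set of Gins2 gave 0.05 without passing.

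The effects over the dosing days were then compared between genotypes. In knock-out against wild type livers the effect was smaller for 6 genes and larger for 1, against 5.77% and 7.67% of all genes. Of the 23 brighter genes it was smaller for 5 and larger for 1. The 6 were Rrm2 (-0.56, SE 0.179, adjusted p = 0.0232), Fignl1 (-0.51, SE 0.093, adjusted p = 1.39e-05), Pcna (-0.31, SE 0.051, adjusted p = 1.26e-06), Pola1 (-0.24, SE 0.075), Fen1 (-0.22, SE 0.069) and Tk1 (-0.19, SE 0.069), and the larger was Pold1 (0.15, SE 0.053), the catalytic subunit of polymerase delta. Fen1 was at 0.06 and Pold1 at 0.04 by their other probe sets, without passing, and the calls of Pold1 and Tk1 were lost without any 1 of 53 and 34 animals. Cdc45 was at 0.08 by its brighter probe set, without passing, and had a smaller effect by its other one, at -0.20 (adjusted p = 0.0228). Without arrays above the acinar limit Rrm2 was at -0.51 (adjusted p = 0.0653) and Pola1 at -0.20 (adjusted p = 0.0933). For Cdt1 the difference was -0.19 (adjusted p = 0.256) and for Prim1 0.03 (SE 0.095, adjusted p = 0.886), and Prim1 had passed in both genotypes. The wild type call of Prim1 was lost without any 1 of 13 animals. With the mean of its probe sets it was lost too, at 0.13 (limma, adjusted p = 0.115). On day 1 alone, Fignl1 (-0.93, SE 0.198, adjusted p = 0.00177) and Pcna (-0.42, SE 0.108, adjusted p = 0.0209) had a smaller effect in knock-out livers, against 0.871% of all genes. Fignl1 passed the brightness filter through treated wild type and humanized livers only. Its smaller effects in knock-out livers, on day 1 and over the dosing days, are therefore tied to the filter. Pcna is among the 23 brighter genes. Without animal 2004, Pcna was at -0.28 (adjusted p = 0.174), and without arrays above the acinar limit Fignl1 was at -0.77 (adjusted p = 0.0603) and Pcna at -0.22 (adjusted p = 0.514). On day 7, 0 genes differed past the threshold, against 0.666% of all genes, and at an unadjusted p under 0.05, 5 had a smaller and 1 a larger effect. Without arrays above the acinar limit, Fignl1 (-0.99, adjusted p = 0.00573) and Pcna (-0.51, adjusted p = 0.0215) were called on day 7, and with median centring Pcna was, at -0.45 (adjusted p = 0.0477).

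Between humanized and wild type livers the effects did not differ past the threshold for any of the 27, over the dosing days (1.88% of all genes did), on day 1 (0.111%) or on day 7 (0.0951%). At an unadjusted limma p under 0.05 the effect was larger in humanized livers for 3, 0 and 1 genes and smaller for 2, 3 and 1 in these 3 comparisons. The largest differences over the dosing days were 0.27 for Cdt1 (SE 0.105, adjusted p = 0.188) and 0.27 for Prim1 (SE 0.094, adjusted p = 0.116). Fignl1 was at -0.56 on day 1 (SE 0.198, adjusted p = 0.593). The longer rise of Prim1 and Cdt1 in humanized livers is thus not shown to differ from wild type. The knock-out and humanized comparisons share the wild type samples.

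The mean level of the 27 genes in each animal shows how unequal the treated livers were. This mean includes Fignl1, Gins2 and Chaf1b, which passed the brightness filter through treated livers only. In wild type on day 1 the controls had a mean of 6.47 ± 0.03 and the treated livers 6.76 ± 0.22 (SD, n = 5 each). On day 7 the values were 6.49 ± 0.06 and 6.72 ± 0.13 (n = 4 each). Humanized livers had 6.39 ± 0.05 and 6.60 ± 0.17 on day 1 (n = 5 each) and 6.42 ± 0.04 and 6.60 ± 0.14 on day 7 (n = 5 and 4). In these 4 comparisons 4 of 5, 3 of 4, 3 of 5 and 3 of 4 treated livers were above every control. From day 14 the difference was between -0.05 and 0.05 in wild type, while humanized livers stood 0.13 and 0.14 above controls on days 14 and 28, with 4 of 5 treated livers above every control on each day, and 0.02 above on day 91. After recovery treated livers were lower by small amounts, at -0.05, -0.08 and -0.03 in wild type, humanized and knock-out mice. Over the 23 brighter genes, control and treated wild type means were 6.77 and 7.03 on day 1 and 6.79 and 7.0 on day 7. In humanized livers they were 6.67 and 6.86 on day 1 and 6.71 and 6.87 on day 7. All these levels are descriptions and carry no test.

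**Figure D4:**
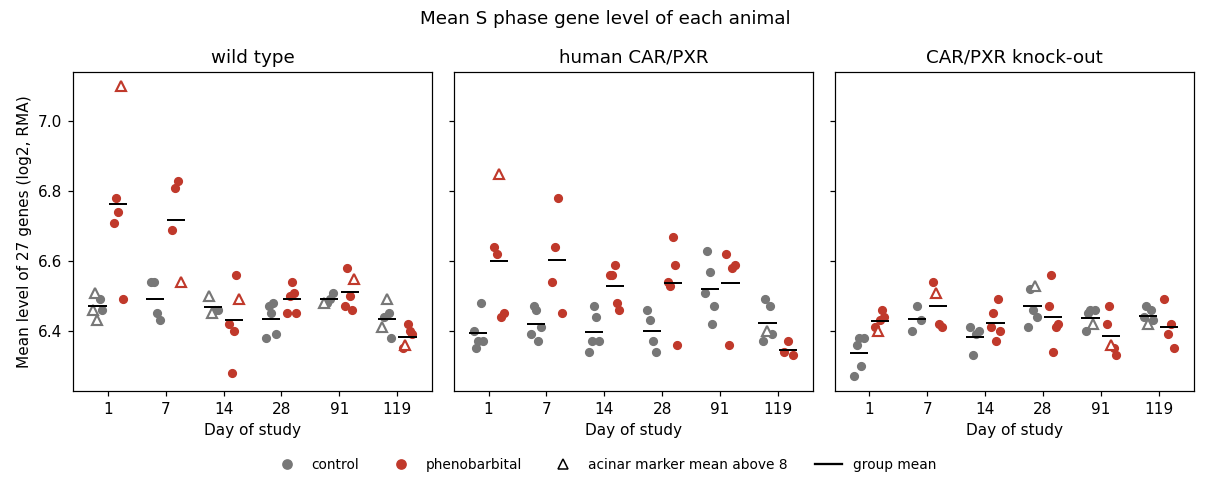
Mean level of the 27 tested genes (log2, RMA) in each animal by day and genotype, with controls in grey, phenobarbital in red, arrays with acinar markers above 8 as open triangles and group means as bars. Treated wild type livers of day 1 run from 6.49 to 7.10 while their controls lie between 6.43 and 6.51. The mean includes Fignl1, Gins2 and Chaf1b, which passed the brightness filter through treated livers only.

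Within groups some of the genes moved together from animal to animal. Across 166 samples, after subtracting each group's mean, Pcna correlated with the mean of the other 26 genes at r = 0.71 (rho = 0.59), Cdt1 at 0.67, and Prim1, Lig1 and Slbp at 0.60. For Tk1 (0.07), Orc1 (-0.07), Ung (-0.12), Cdc45 (-0.16) and Fen1 (-0.18) the value was near or below 0. Each gene stands here by its brightest probe set, which for Fen1 has probes shared with other transcripts. For Cdc45 and Fen1 the other probe sets gave different treatment effects above, and correlations were not computed for them. Ung is the uracil-DNA glycosylase that removes uracil from DNA. The 6 genes outside the list whose deviations were most like the mean member level were Mcm5 (r = 0.85, rho = 0.80), Mcm6 (0.80), Smc2 (0.72), Mcm4 (0.71), Mcm7 (0.71) and Tcf19 (0.66). All samples share 1 normalization, and the groups with high animals weigh most in these values, which are descriptions.

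Other genes of the same process were counted from lists. Among all genes tested, 5.02% rose on day 1 and 2.11% on day 7 in wild type, and 3.95% and 2.82% in humanized livers. The wild type day-1 count of the S phase genes described above fell from 12 to 4 without animal 2004. It fell to 1 without arrays above the acinar limit. For the lists below, counts without that animal or those arrays are not given, so their dependence on them is not known. Of 7 MCM genes tested, the helicase subunits with Mcm10, 5 rose and 0 fell in wild type on day 1, led by Mcm5 (1.38), Mcm6 (1.25) and Mcm4 (0.73), and 4 rose on day 7; in humanized livers 5 and 6 rose. Of 22 other fork and origin genes 6 rose and 0 fell on day 1 in wild type, Wdhd1 (0.44), Timeless (0.39) and Pold2 (0.38) by most. On day 7, 0 rose and 1, Dna2 (-0.32), fell. Of 15 S phase kinase, licensing control and E2F genes 4 rose on day 1, among them Rbl1 (0.62), Ccne2 (0.61) and Ccna2 (0.45), and 3 rose on day 7, Ccna2 (0.97), Dbf4 (0.72) and Gmnn (0.49). Of 11 genes of G2/M and mitosis 4 rose on day 1, and 6 on day 7, Ccnb2 by 1.86, Ect2 by 1.79 and Birc5 by 1.42. The brightness filter left 10 of the 21 mitotic genes with a probe set untested, and Birc5 passed it on 3 arrays, Ect2 on 6 and Ccnb2 on 12, so their passing rested on a few arrays and the size of their differences is tied to it.

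In control livers pooled over the days the genotypes differed a little. Knock-out livers had 5 genes lower and 1 higher than wild type, against 10.9% and 11.5% of all genes. Prim1 was lower, at -0.21 (SE 0.062, adjusted p = 0.00853), Rfc4, Rfc5, Chaf1b and Cdc45 were lower at -0.10 to -0.15, and Tk1 was higher, at 0.20 (SE 0.045, adjusted p = 0.000211). As means of their probe sets, Chaf1b and Cdc45 were both at -0.06, without passing. By that measure Fen1 (-0.14), Pold1 (-0.07) and Prim2 (-0.09) were lower. Humanized livers had 7 genes lower and 1 higher, against 16.5% and 11.6% of all genes. Prim1 was lower there too, at -0.20 (SE 0.061, adjusted p = 0.00825), as were Pold1, Rfc4, Rfc5, Orc6, Pola2 and Slbp at -0.09 to -0.14, and Gins2 was higher at 0.10, by a probe set shared with other transcripts. Both comparisons use the same wild type controls, and the acinar markers had median differences of -0.96 in knock-out and -1.13 in humanized controls against wild type, with 1 and 7 of 7 lower. Their part in these differences was not tested. With each array centred on its median, 4 genes were lower in humanized controls. With specific probe sets, which leave out shared ones, Pold1 was at 0.03 and Gins2 at -0.10 there, without passing, and Fen1 was lower, at -0.16. Without arrays above the acinar limit Orc6 (-0.12), Pola2 (-0.07) and Gins2 (0.08) did not pass there, and Dut was higher, at 0.13. With the mean of probe sets Slbp (0.02), Gins2 (0.0), Pola2 (-0.04) and Pold1 (-0.05) did not pass in humanized controls. By that measure Fen1 (-0.12) and Gins1 (-0.11) were lower and Fignl1 (0.11) and Pola1 (0.08) higher.

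Between days 1 and 119 the controls of all genotypes had 4 genes higher and 1 lower, against 13.8% and 14.1% of all genes. Rrm2 was higher by 0.58 (SE 0.155, adjusted p = 0.00221), Fignl1 by 0.23, Rfc4 by 0.20 and Pcna by 0.14, and Tk1 was lower, at -0.23 (SE 0.059, adjusted p = 0.00154). Without arrays above the acinar limit Rfc4 was at 0.13 and Pcna at 0.09, without passing, and Rfc4 was at 0.07 as the mean of its probe sets. Age and the sampling occasion cannot be told apart here.

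The dim genes were looked at in a fit of all 18193 genes without the brightness filter. Pole, the catalytic subunit of polymerase epsilon, rose in that fit by 0.61 on day 1 in wild type (SE 0.124, adjusted p = 0.000256) and by 0.44 in humanized livers (SE 0.124, adjusted p = 0.0127), from a median level of 4.57. Cdc6, at a median level of 2.96, was higher over the dosing days by 0.23 in wild type and 0.15 in humanized livers, both past the threshold. Over the dosing days Pole was higher by 0.33 in wild type (adjusted p = 2.39e-06) and by 0.24 in humanized livers (adjusted p = 0.000535).

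The balance of higher and lower calls among all genes depended on centring. In wild type on day 1 the share of calls that were higher was 41.9% as deposited and 58.9% with each array centred on its median, and 12 and 14 of the 27 genes rose. In humanized livers on day 1 the shares were 33.6% and 51.3% with 7 and 9 of the genes, and for the wild type dosing days 37.4% and 54.3% with 12 and 14. For the effect in knock-out against wild type livers the shares were 57.1% and 44.7%, with 6 and 8 of the genes smaller, and for humanized against wild type controls 41.2% and 60.1%, with 7 and 4 lower. For knock-out livers on day 91 the shares were 25.5% and 55.8%, with 2 and 0 lower, and for wild type livers on day 14 they were 35.3% and 67.1%, with 1 and 2 higher.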

How the data were processed

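Liver RNA of 167 mice was measured on 1 array each. The deposited table holds log2 values per probe set made by the authors with RMA, per the submitters' processing notes; software versions and other steps were not given in the sources used here. Arrays have no read depth, and the number of animals limits the precision. Probe sets naming 1 gene were kept (34958 of 45101), with the brightest standing for its gene. The 12622 genes with at least 3 arrays above the array's median (5.15 to 5.23) were fitted in limma 3.58.1 (R 4.3.3) as 36 group means over 166 samples with 130 residual degrees of freedom, 2-sided, with Benjamini-Hochberg adjustment within each of 34 contrasts. Genes with an adjusted p under 0.05 were called. The script was tested on simulated data. The treated arrays of animals 6026 and 6030 were averaged.

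The members and lists were chosen with earlier results of these data known. Named with sample values were the 5 called members with the largest differences on days 1 and 7 in wild type and humanized livers and over the dosing days in each genotype, with up to 3 called genes of each pathway list and the 6 genes most like the members. Genes named beyond this, such as the day-14, day-28 and day-91 calls, the values of Pcna and Pola1, and Rrm2 in knock-out livers, were chosen after their values were seen. Alternatives were another normalization, centring, filter, probe set choice, prior, sample set, and each animal left out. Fitting every probe set on its own was added after seeing the data. Promoter windows came from RefSeq.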

Additional observations from a re-analysis of the deposited data

Results flagged for a closer look

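Of 34 groups of 4 or 5 samples, 1 had a sample that stood apart in the mean level of the 27 genes. Animal 6022 of the treated humanized livers of day 91 was low at 6.36, and chance alone marks about 1 in 20 groups in this way.

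The effect of phenobarbital over the dosing days differed between knock-out and wild type livers for 7 of the genes by the limma test of the difference itself. Among all genes it was smaller for 5.77% and larger for 7.67%. It was smaller in knock-out livers for Rrm2 (-0.56), Fignl1 (-0.51), Pcna (-0.31), Pola1 (-0.24), Fen1 (-0.22) and Tk1 (-0.19), and larger for Pold1 (0.15). Fen1 was at 0.06 and Pold1 at 0.04 by their other probe sets, without passing. The calls of Pold1 and Tk1 were lost without any 1 of 53 and 34 animals. Without arrays above the acinar limit Rrm2, Pola1 and Pold1 did not pass. On day 1 the effect was smaller for Fignl1 (-0.93) and Pcna (-0.42), and neither passed without those arrays. Fignl1 had passed the brightness filter through treated wild type and humanized livers only.

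Between days the effect on day 91 was smaller than on day 1 for Fignl1 (-0.91) and Pcna (-0.43) in wild type livers and for Pole2 (-0.52) in humanized livers. Animal 2004 or animal 6003, the highest of their groups on day 1, enter these differences, and the calls were lost without them. Fignl1 had also passed the brightness filter through treated livers only.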

How the results depend on the processing

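Counts are of the 27 genes, and the shares of all genes called are not given beside them in this section. Without arrays above the acinar limit, 1 gene rose in wild type on day 1, 8 on day 7 and 7 over the dosing days, 2 rose in humanized livers on day 1, and 2 were higher in controls of day 119. With the compared groups alone, 4 rose in wild type on day 1, 1 on day 7, and 1 in humanized livers on day 1. The knock-out dosing mean had 1 gene higher with the compared groups alone, renewed quantile normalization, specific probe sets or the stricter filter. It had 0 lower with median centring, no filter, renewed quantile normalization, or without acinar or nearly identical arrays. The effects smaller on day 91 than on day 1 in wild type numbered 0 with the compared groups alone, the stricter filter or without acinar arrays, and 1 with the mean of probe sets or no filter. With median centring 4 genes were lower in humanized controls. The cause was not tested, except that fewer samples entered where groups or arrays were left out.

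Leaving out each animal in turn gave 4 to 15 genes higher in wild type on day 1, 1 to 6 on day 7 and 9 to 12 over the dosing days. For humanized livers it gave 0 to 8, 1 to 3 and 12 to 16. The knock-out mean had 1 to 3 higher and 0 to 1 lower, knock-out against wild type 5 to 7 smaller effects, and day 91 against day 1 in wild type 0 to 5. Controls had 5 to 7 (knock-out) and 5 to 9 (humanized) genes lower, and 4 to 5 higher on day 119. For the named genes, 253 values kept their call and 39 lost it under 10 other alternatives, 715 kept it and 47 lost it over 166 fits that left out 1 animal, and 0 reversed. No paired analysis was possible because animal numbers are unique to each group.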
